A study of Mus musculus with 9 samples.

Results

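Genes of the channels that set the rhythm of midbrain dopamine neurons were followed on arrays of the mouse substantia nigra after chronic methylphenidate (MPH), a blocker of the dopamine and noradrenaline transporters. The list of 9 held the potassium channel genes Kcnj6, Kcnn3 and Kcnd3, the Kcnd3 partner Kcnip3, the pacemaker channel genes Hcn2, Hcn3 and Hcn4, and the L-type calcium channel genes Cacna1c and Cacna1d. Its members were all probe sets that the array annotation gives to one of these 9 genes alone, and 17 of the 45037 probe sets tested qualified. They measured 7 of the 9 genes, since no probe set carried the name Hcn3 or Hcn4 in the annotation used, and those genes were not analysed here. The array names 17097 genes in all, and where a gene had several probe sets the brightest over the 9 arrays stood for it. The others are given beside it for the members, and only in part for other channel genes and markers.

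The animals were outbred Swiss Webster mice, injected intraperitoneally once a day on weekdays for 3 months from early adolescence and then left without drug for 7 days. They received MPH at 1 mg/kg, MPH at 10 mg/kg or saline, with 3 arrays per group, and the whole dissected nigra was hybridised, so that RNA of dopamine neurons was mixed with that of all other cells of the piece. The sources used here do not say whether an array held 1 animal or several, and p-values therefore measure only the spread between arrays. Each array is placed in the dose group that its deposited label names. The lists of changed genes that accompany the paper carry the doses the other way round. The dose named in each comparison with saline is therefore that of the label and is not settled. A difference between the doses has a size here and no settled direction.

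Dopamine neurons of the nigra fire on their own in a slow and regular rhythm. L-type calcium channels and the inward current of HCN channels depolarise the cell between spikes, and the small-conductance potassium channel encoded by Kcnn3 gives the long afterhyperpolarisation that keeps the spikes apart. The A-type potassium channel, whose pore in these neurons is made mainly by Kcnd3, delays the next spike, and the Kcnj6 channel (GIRK2) is opened by dopamine autoreceptors and slows the cell. Reliance on the Cacna1d channel is widely discussed as a burden that makes nigral neurons vulnerable.

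The pacemaker channel genes lay close to the whole array, while markers of dopamine neurons were mostly lower after MPH. Over the 7 measured genes the median log2 fold change was -0.10 in MPH 1 mg/kg and -0.02 in MPH 10 mg/kg, both against saline, beside medians of -0.02 and -0.02 over all 17097 genes. In 20 dopamine neuron markers the medians were -0.47 and -0.37, and the difference between the lists was not tested. Of the 17 member probe sets, 0 reached an adjusted p of 0.05 (limma, replicate number as a block, Benjamini-Hochberg adjustment over all probe sets) in either comparison with saline or between the doses, and the same fit called 0% of all probe sets in each. Without the block 0 of the 17 passed as well, where 0.12% of all probe sets passed for MPH 1 mg/kg, 0.255% for MPH 10 mg/kg and 0% between the doses. Because 3 arrays against 3 cannot give a two-sided exact permutation p below 0.1, the spread between arrays is given for each gene.

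At an unadjusted p of 0.05, 1 of 17 member probe sets was lower and 0 were higher in MPH 1 mg/kg than in saline, where 5.77% of all probe sets were lower and 4.53% higher. In MPH 10 mg/kg 0 were lower and 1 was higher, beside 5.51% and 4.08% of all probe sets. Between the doses, 0 were lower and 2 were higher in MPH 10 mg/kg, beside 3.39% and 3% of all probe sets. Groups did not overlap for 2 member probe sets that were lower and 2 that were higher in MPH 1 mg/kg, against 12.4% and 10.7% of all probe sets. For MPH 10 mg/kg the counts were 1 lower and 4 higher, against 13.1% and 10.3%. Several of the 17 probe sets share a gene, and no difference of these shares from the whole array was tested.

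**Figure D1:**
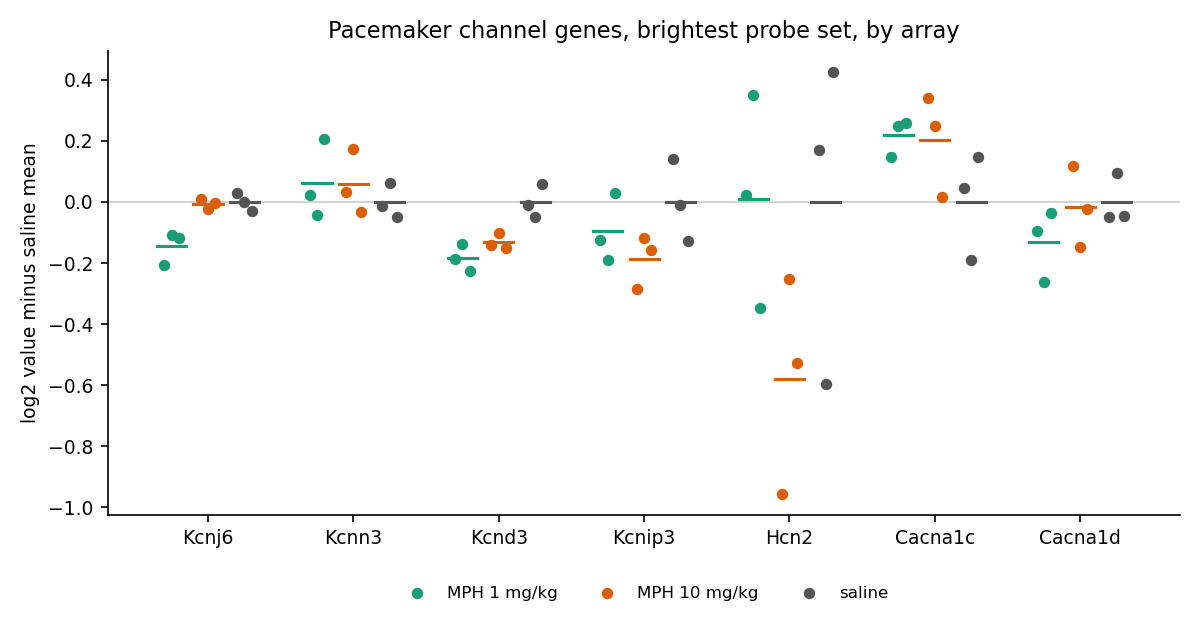
Log2 value of the brightest probe set of each of the 7 measured genes in every array, minus the gene's mean in saline, for MPH 1 mg/kg, MPH 10 mg/kg and saline; points are arrays and bars are group means. Kcnd3 sat below saline in all 6 MPH arrays by 0.13 to 0.18 on average, while Hcn2 had the widest spread within groups.

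Signal set a limit on what could be read. The 23 control probe sets that match no mouse transcript had a median log2 value of 2.93 and ranged up to 5.29, and 7 of the 17 member probe sets averaged above that highest control. These 7 belonged to 5 genes, Kcnd3, Kcnip3, Hcn2, Cacna1c and Cacna1d, and the remaining 10 lay inside the range of the controls. Kcnn3 and all probe sets of Kcnj6 were among those 10, so a change of these genes could have gone unseen. The tissue itself carried its defining markers, with Th at 10.31 to 10.53 in MPH 1 mg/kg, 10.45 to 10.63 in MPH 10 mg/kg and 10.99 to 11.18 in saline.

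Among the potassium channel pores, Kcnd3 gave the clearest reading and also the clearest disagreement between probe sets. Its brightest probe set read 9.81, 9.86 and 9.78 in MPH 1 mg/kg, 9.86, 9.90 and 9.85 in MPH 10 mg/kg, and 9.99, 9.95 and 10.06 in saline. Every MPH array lay below every saline array, and the SDs were 0.04, 0.03 and 0.06. The log2 fold change was -0.18 (SE 0.07, 95% interval -0.35 to -0.02) for MPH 1 mg/kg, which is a ratio of 0.88, and -0.13 (SE 0.07, interval -0.30 to 0.04) for MPH 10 mg/kg, a ratio of 0.914. The first had an unadjusted p of 0.0346, and the adjusted p (limma) was 0.457 with the block and 0.132 without it. The second had adjusted p values of 0.584 with the block and 0.245 without it, and its fold change was -0.09 without saline replicate 3.

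The other Kcnd3 probe set above the controls moved the opposite way. It read 5.55, 6.31 and 6.26 in MPH 1 mg/kg, 6.95, 6.32 and 6.52 in MPH 10 mg/kg, and 5.81, 5.85 and 5.97 in saline. All MPH 10 mg/kg arrays exceeded all saline arrays, whereas the MPH 1 mg/kg arrays lay on both sides of saline. The log2 fold change was 0.72 (SE 0.23, interval 0.19 to 1.25, limma p 0.0148, adjusted p 0.448) for MPH 10 mg/kg and 0.16 (SE 0.23) for MPH 1 mg/kg. The highest array, MPH 10 mg/kg replicate 1, was also the one with the highest mean of 9 cortical and hippocampal neuron markers, 7.06 against 5.72 to 6.30 in the other 8 arrays, and the part of that in the reading was not tested. Without that array the fold change was 0.40 (limma p 0.0379, adjusted p 0.605). With the mean of the 4 Kcnd3 probe sets in place of the brightest, the values for the gene were -0.01 and 0.13, so no direction can be given for Kcnd3 as a whole. The remaining Kcnd3 probe sets averaged 3.15 and 3.09, near the median of the controls.

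**Figure D2:**
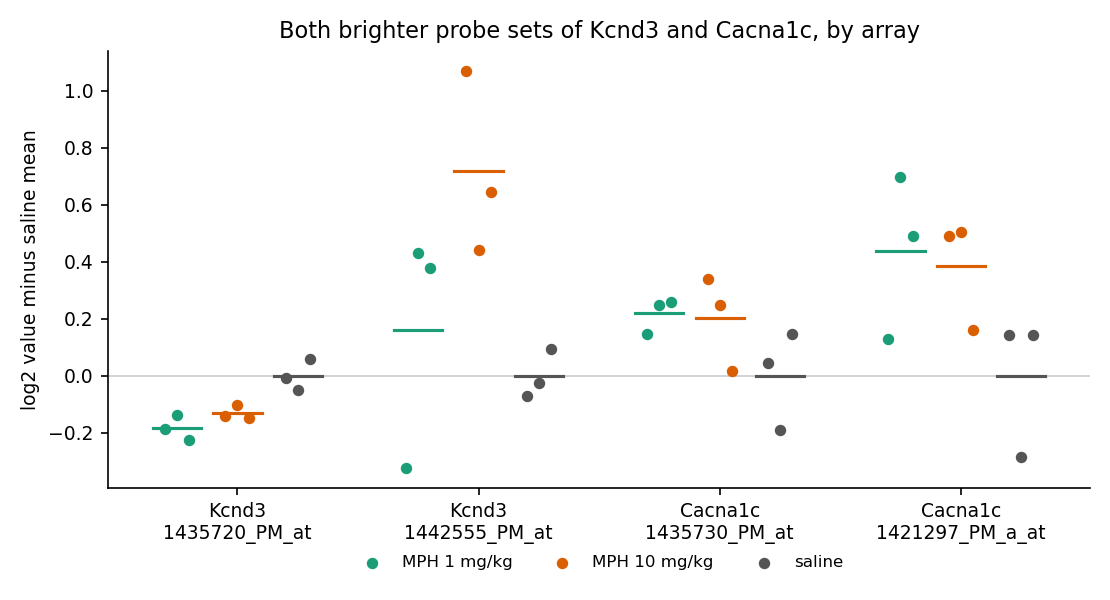
Log2 values, minus the mean in saline, of the probe sets of Kcnd3 and Cacna1c that lay above the controls, for MPH 1 mg/kg, MPH 10 mg/kg and saline; points are arrays and bars are group means. The Kcnd3 probe sets departed from saline in opposite directions, by -0.13 and 0.72 in MPH 10 mg/kg, and those of Cacna1c in the same direction.

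Kcnip3 encodes a calcium-binding subunit of the A-type channel that is also known as a transcriptional repressor. Its brighter probe set read 6.14, 6.07 and 6.29 in MPH 1 mg/kg, 5.98, 6.14 and 6.11 in MPH 10 mg/kg, and 6.40, 6.25 and 6.14 in saline. The groups overlapped, with log2 fold changes of -0.10 (SE 0.10, interval -0.34 to 0.15) and -0.19 (SE 0.10, interval -0.43 to 0.06). Its dimmer probe set gave 0.13 and -0.03 (SE 0.20), so the sign for MPH 1 mg/kg differed between the probe sets.

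Kcnj6 was dim. Its brightest probe set read 4.50, 4.59 and 4.59 in MPH 1 mg/kg, 4.71, 4.68 and 4.70 in MPH 10 mg/kg, and 4.73, 4.70 and 4.68 in saline. All MPH 1 mg/kg arrays were below all the others, with a log2 fold change of -0.14 (SE 0.07, limma p 0.0732, adjusted p 0.521) against saline, while MPH 10 mg/kg differed from saline by -0.01 (SE 0.07, interval -0.17 to 0.16). The other 4 probe sets averaged between 3.24 and 3.95, and their log2 fold changes ran from -0.14 to 0.10 in MPH 1 mg/kg and from -0.14 to 0.07 in MPH 10 mg/kg. In one of them, with a mean of 3.35, no MPH array overlapped with saline, although the means were higher by only 0.05 and 0.04, since the saline arrays read 3.32 each.

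Kcnn3 had a single probe set, with a mean of 3.55 over the 9 arrays. It read 3.53, 3.47 and 3.71 in MPH 1 mg/kg, 3.54, 3.68 and 3.48 in MPH 10 mg/kg, and 3.49, 3.57 and 3.46 in saline. The groups overlapped, and the log2 fold changes were 0.06 and 0.06 (SE 0.10, intervals -0.16 to 0.29 and -0.17 to 0.28).

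**Figure D3:**
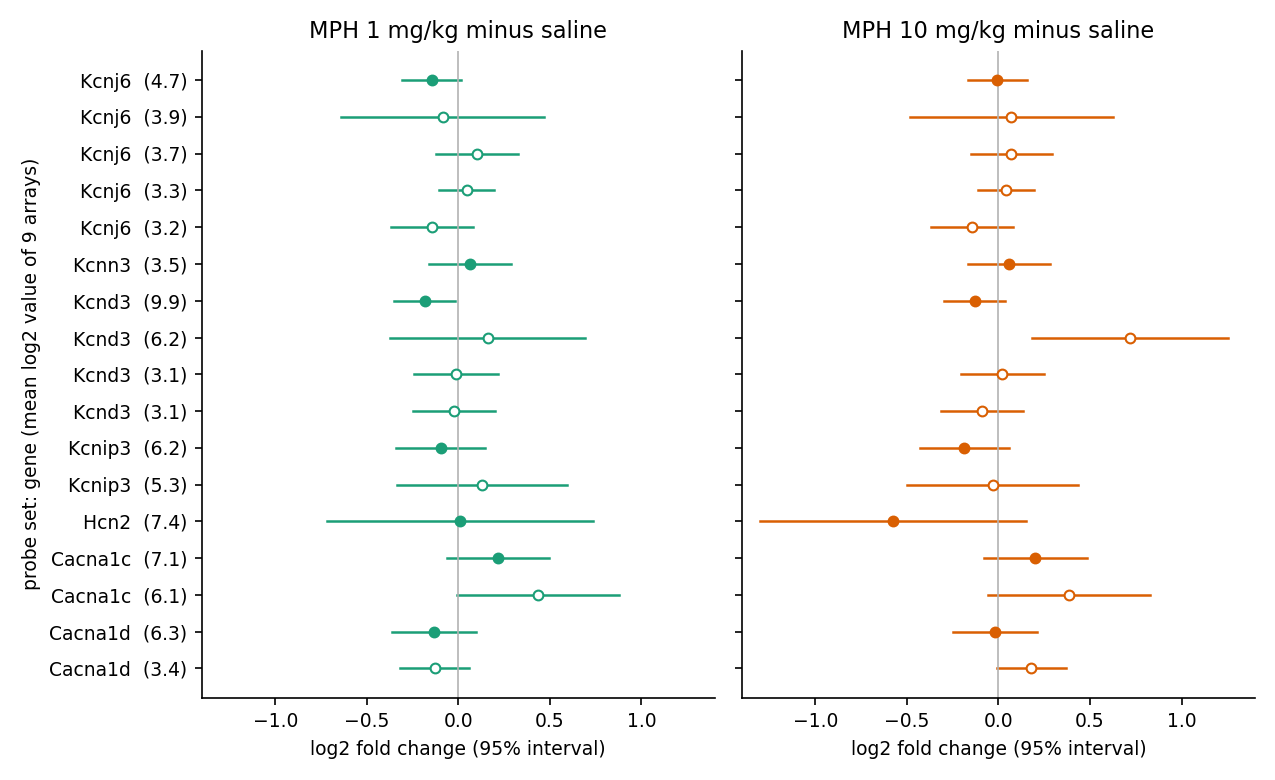
Log2 fold change against saline, with its 95% interval from limma, for all 17 probe sets in MPH 1 mg/kg and MPH 10 mg/kg; filled points are the brightest probe set of a gene and the mean log2 value over 9 arrays stands in parentheses. The intervals that leave out 0 are those of the brightest Kcnd3 probe set in MPH 1 mg/kg and of the second Kcnd3 probe set in MPH 10 mg/kg.

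Hcn2, the pore of an HCN channel that is also abundant in thalamic relay neurons, varied widely between arrays of the same group. It read 7.62, 7.95 and 7.25 in MPH 1 mg/kg, 6.64, 7.34 and 7.07 in MPH 10 mg/kg, and 7.77, 7.00 and 8.02 in saline. The lowest readings came from MPH 10 mg/kg replicate 1 and saline replicate 2, and the groups overlapped in both comparisons with saline. The log2 fold change was 0.01 (SE 0.31, interval -0.72 to 0.73) for MPH 1 mg/kg and -0.58 (SE 0.31, interval -1.30 to 0.15, limma p 0.103, adjusted p 0.579) for MPH 10 mg/kg. Between the doses it was -0.59 (SE 0.31, limma p 0.0986, adjusted p 0.795).

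Low Hcn2 readings, though not the group means, went with low markers of the thalamus, which lies near the dissected piece. The mean of 6 thalamic markers (Tcf7l2, Rora, Lhx9, Prkcd, Rgs16 and Plekhg1) was 8.82, 8.94 and 8.49 in MPH 1 mg/kg, 7.15, 8.47 and 7.81 in MPH 10 mg/kg, and 8.33, 6.75 and 8.14 in saline. Within each group the array lowest in these markers was also the lowest in Hcn2. The group means did not run in parallel. The markers averaged 8.75 in MPH 1 mg/kg, 7.81 in MPH 10 mg/kg and 7.74 in saline, and Hcn2 averaged 7.60, 7.02 and 7.60. The array highest in Hcn2, saline replicate 3, had a marker mean of 8.14, below every MPH 1 mg/kg array. Both arrays lowest in the markers, MPH 10 mg/kg replicate 1 and saline replicate 2, lay below all others in Hcn2 too. Without saline replicate 2 the Hcn2 fold changes from the fit with the block were -0.46 for MPH 1 mg/kg and -1.04 for MPH 10 mg/kg. The second had a limma p of 0.000713 and an adjusted p of 0.512. Leaving out MPH 10 mg/kg replicate 1 as well, a choice made after the values were seen, gave -0.43 and -0.89. For MPH 10 mg/kg the limma p was then 0.00223 and the adjusted p 0.533. All of these values were larger in size than the differences between plain means of the arrays left. Other omissions made the MPH 10 mg/kg value smaller, to -0.34 without MPH 10 mg/kg replicate 1 and -0.29 without saline replicate 3. Over the 9 arrays the genes most like Hcn2 were Mrps18a, Ndufb10 and Cttnbp2nl, with Pearson r of 0.981, 0.978 and 0.974, the 3 highest of 10528 genes above the median level. The part of thalamic tissue in the Hcn2 values was not tested.

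**Figure D4:**
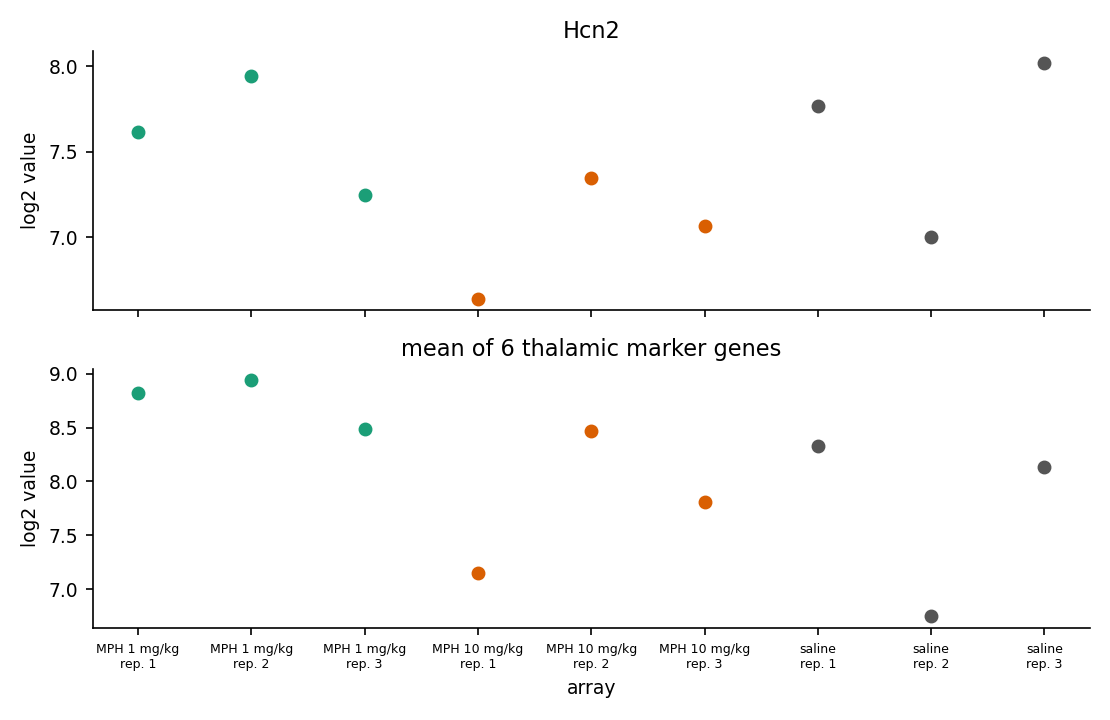
Log2 value of Hcn2 and mean log2 value of 6 thalamic marker genes in each array of MPH 1 mg/kg, MPH 10 mg/kg and saline. The same arrays are lowest in both panels, MPH 10 mg/kg replicate 1 at 6.64 and 7.15 and saline replicate 2 at 7.00 and 6.75.

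Of the L-type calcium channel pores, Cacna1c was higher on average in both MPH groups, by less than the test could call. Its brighter probe set read 7.09, 7.19 and 7.20 in MPH 1 mg/kg, 7.28, 7.19 and 6.96 in MPH 10 mg/kg, and 6.99, 6.75 and 7.09 in saline. The MPH 1 mg/kg arrays were all at or above the highest saline array, from which the lowest of them differed only in the third decimal, and the MPH 10 mg/kg arrays overlapped with saline. The log2 fold changes were 0.22 (SE 0.12, interval -0.06 to 0.50) and 0.20 (SE 0.12, interval -0.08 to 0.48), with adjusted p values (limma) of 0.563 and 0.609.

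The dimmer Cacna1c probe set read 5.95, 6.52 and 6.31 in MPH 1 mg/kg, 6.31, 6.32 and 5.98 in MPH 10 mg/kg, and 5.96, 5.53 and 5.96 in saline. Its fold changes were 0.44 (SE 0.19, limma p 0.0519, adjusted p 0.485) and 0.38 (SE 0.19, limma p 0.0795, adjusted p 0.557). Both Cacna1c probe sets were lowest in saline replicate 2, the array poorest in thalamic markers. Without it the brighter probe set gave 0.10 and 0.09 and the dimmer 0.20 and 0.15. Without both arrays poor in these markers the fit with the replicate block gave -0.05 and -0.06 for MPH 10 mg/kg. In that fit only replicate 3 held both MPH 10 mg/kg and saline. The MPH 10 mg/kg arrays left read 7.19 and 6.96 against 6.99 and 7.09 in saline for the brighter probe set. For the dimmer they read 6.32 and 5.98 against 5.96 and 5.96, so the negative signs came with the block.

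Cacna1d, the pore of the L-type channel that opens at more negative voltage, had a brighter probe set whose groups overlapped and a dim one whose doses did not. The brighter read 6.28, 6.11 and 6.34 in MPH 1 mg/kg, 6.49, 6.23 and 6.35 in MPH 10 mg/kg, and 6.32, 6.47 and 6.33 in saline. The log2 fold changes were -0.13 (SE 0.10, interval -0.36 to 0.10) and -0.02 (SE 0.10, interval -0.25 to 0.21). The suffix of this probe set, s_at, marks probes that can match more than 1 transcript or a related gene. Its other probe set, inside the range of the controls, read 3.34, 3.20 and 3.36 in MPH 1 mg/kg, 3.66, 3.61 and 3.55 in MPH 10 mg/kg, and 3.36, 3.45 and 3.48 in saline. Its MPH 10 mg/kg arrays lay above all others, with a difference of 0.31 (SE 0.08, interval 0.12 to 0.50, limma p 0.00576, adjusted p 0.774) from MPH 1 mg/kg and of 0.18 (SE 0.08, adjusted p 0.53) from saline.

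The genes most alike in pattern were listed for the other members in the same way. Over the 9 arrays, which share treatment groups and tissue content, the brightest Kcnd3 probe set followed Sh2d3c, Rpp40 and Tm2d3 most closely (Pearson r 0.984, 0.975 and 0.974). Cacna1c followed Anp32a, Lhx2 and Cnnm1 (r 0.968, 0.967 and 0.953), and Cacna1d followed Ist1, Itm2c and Agpat5 (r 0.972, 0.948 and 0.948). Kcnip3 followed Tspan3, Slc25a18 and Ankrd40 (r 0.965, 0.951 and 0.95), and Kcnj6 followed Fam216a, Lrrc40 and Cyp7b1 (r 0.974, 0.955 and 0.955). For Kcnn3, near the controls, the highest r was 0.904, with Rps4x. All of these r values were picked as the highest of 10528 genes over 9 arrays, so they are high by selection.

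Among 46 of 60 other channel genes with a probe set, 4 were lower and 1 was higher in MPH 1 mg/kg than in saline at an unadjusted p of 0.05, where 7.4% and 3.32% of all genes were. In MPH 10 mg/kg 4 were lower and 0 were higher, beside 6.95% and 3.28% of all genes. Of the 46, 0 reached an adjusted p of 0.05, and their median log2 fold changes were 0.00 and -0.01.

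In the Kv4 complex, to which Kcnd3 and Kcnip3 belong, both genes with the smallest p were lower on average in both comparisons. Of the 6 measured genes of this list, 4 were lower and 2 higher on average in MPH 1 mg/kg (median -0.19). In MPH 10 mg/kg 3 were lower and 3 higher (median -0.04). Dpp6, a membrane subunit that speeds A-type current, read 9.53, 9.41 and 9.62 in MPH 1 mg/kg, 9.63, 9.69 and 9.59 in MPH 10 mg/kg, and 9.92, 9.93 and 9.85 in saline. Every MPH array lay under every saline array, with log2 fold changes of -0.38 (SE 0.08, limma p 0.00222, adjusted p 0.378) and -0.26 (SE 0.08, limma p 0.0144, adjusted p 0.448). A second Dpp6 probe set gave only -0.03 and -0.09. Kcnip1, a calcium-binding subunit related to Kcnip3, read 7.53, 7.08 and 7.43 in MPH 1 mg/kg, 7.23, 7.52 and 7.19 in MPH 10 mg/kg, and 7.63, 7.84 and 7.81 in saline. The log2 fold changes were -0.41 (SE 0.15, adjusted p 0.441, limma) and -0.45 (SE 0.15, adjusted p 0.457), with no overlap with saline, and its probe set of next brightness gave -0.32 and -0.39. Without MPH 1 mg/kg replicate 2 the first value was -0.21.

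Pex5l, the HCN subunit that governs how many HCN channels reach the membrane, was the only measured gene of its list. It gave -0.31 (SE 0.13, limma p 0.0427, adjusted p 0.472) and -0.32 (SE 0.13, limma p 0.0376, adjusted p 0.5). Its second probe set gave 0.22 and 0.13. Without MPH 1 mg/kg replicate 2 the value for that dose was -0.18. In fits with the block the value for MPH 10 mg/kg was -0.17 without its replicate 1, and -0.06 when saline replicate 2 was left out as well. The arrays then left still did not overlap, at 6.57 and 6.55 in MPH 10 mg/kg against 6.98 and 6.66 in saline.

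In the remaining lists the genes with the smallest p were spread over both directions. Of the GIRK and ATP-sensitive channel genes, Kcnj9 (GIRK3) gave 0.43 (limma p 0.0272, adjusted p 0.442) and Abcc8, the sulfonylurea receptor, -0.40 in MPH 1 mg/kg. Without saline replicate 2 Kcnj9 gave 0.20. In MPH 10 mg/kg Kcnj11, the pore that Abcc8 regulates, gave -0.22 and Abcc8 -0.47. Kcnj11 averaged 4.96, inside the range of the controls, and its dimmer probe set gave 0.08 in MPH 10 mg/kg. Calcium-activated potassium channel genes gave -0.21 (Kcnmb4) and 0.19 (Kcnn1) in MPH 1 mg/kg, and 0.28 (Kcnmb2) and 0.16 (Kcnn2) in MPH 10 mg/kg. A dimmer Kcnmb2 probe set gave -0.01 in MPH 10 mg/kg.

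Calcium channel pores other than the members gave -0.40 (Cacna1h, a T-type channel) and 0.15 (Cacna1f) in MPH 1 mg/kg, and -0.16 (Cacna1s) and 0.10 (Cacna1f) in MPH 10 mg/kg. Their auxiliary subunits gave -0.25 (Cacnb1) and 0.18 (Cacna2d4) in MPH 1 mg/kg, and 0.16 (Cacna2d1) and -0.09 (Cacna2d2) in MPH 10 mg/kg. Among sodium and sodium leak channel genes, Scn3a gave -0.31 (limma p 0.00978, adjusted p 0.409) and Scn1a 0.34 in MPH 1 mg/kg, with Scn2b at -0.18 and Unc79, a partner of the sodium leak channel, at 0.17 in MPH 10 mg/kg. Of the other potassium channels, Kcnq3, an M-type subunit, gave 0.52 and Kcnc1 0.20 in MPH 1 mg/kg, and Kcnh2, the ERG channel, -0.28 (limma p 0.0123, adjusted p 0.441) and Kcna2 -0.11 in MPH 10 mg/kg. Means over the 9 arrays were 3.01 for Unc79, 3.19 for Cacna1s, 3.98 for Cacna2d4 and 4.01 for Cacna1f. Cacnb1 averaged 4.24 and Kcnq3 4.38, and all of these lay inside the range of the controls. In MPH 1 mg/kg a dimmer probe set of each of Cacnb1, Cacna2d4 and Scn3a had the opposite sign. The same held for Cacna2d2, Scn2b and Kcna2 in MPH 10 mg/kg.

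**Figure D5:**
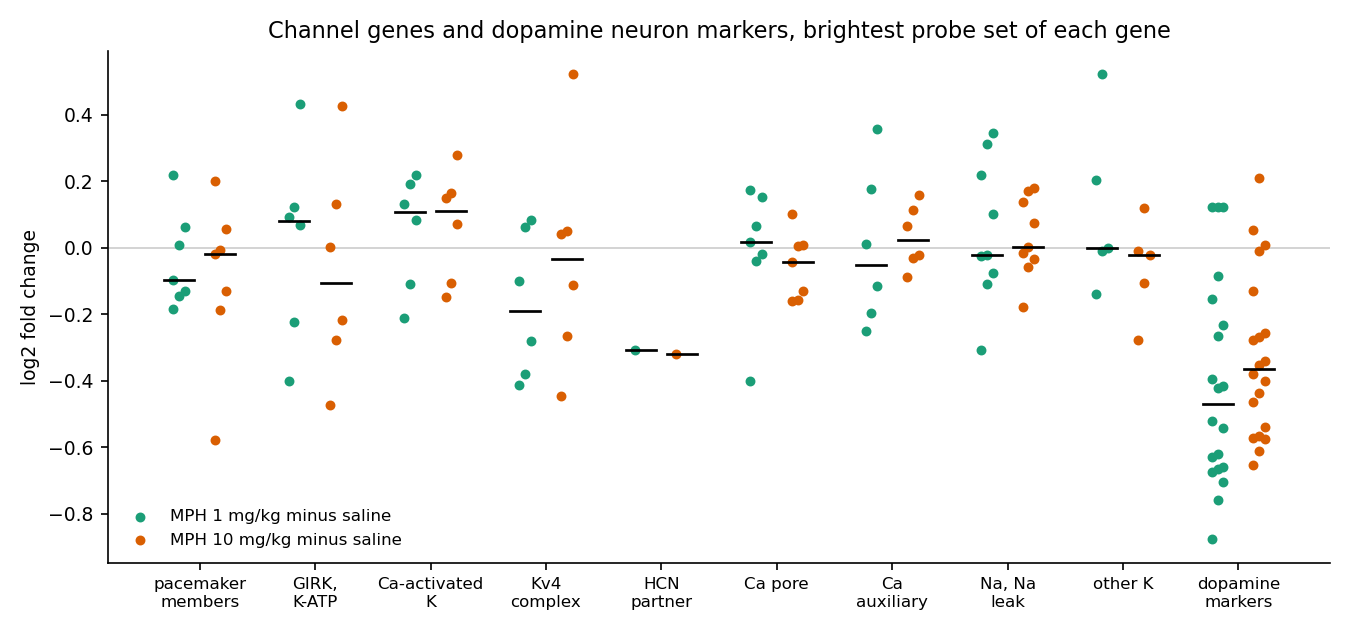
Log2 fold change against saline of the brightest probe set of each gene, for the 7 pacemaker members, 8 lists of other channel genes and 20 dopamine neuron markers, in MPH 1 mg/kg and MPH 10 mg/kg; points are genes and black bars are medians. Channel genes scatter around 0, while the dopamine neuron markers have medians of -0.47 and -0.37.

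Beside these channels, 14 of 20 dopamine neuron markers in MPH 1 mg/kg and 13 in MPH 10 mg/kg were lower than in saline at an unadjusted p of 0.05 and 0 were higher, where 7.4% and 6.95% of all genes were lower. With the block 0 of the 20 reached an adjusted p of 0.05, and without it 4 did in each comparison, beside 0.105% and 0.257% of all genes. Th, the rate-limiting enzyme of dopamine synthesis, gave -0.66 and -0.57, Ddc, which completes it, -0.40 and -0.38, and the transporter Slc6a3 -0.23 and -0.27. In whole tissue fewer dopamine neurons and less RNA per neuron cannot be told apart, and neither can a channel made by dopamine neurons be told apart from the same channel in their neighbours. Means of some marker lists of other cell types also differed between the groups, and their part in these values was not tested. With the block, 0 genes of these lists reached an adjusted p of 0.05 (limma) against saline. At an unadjusted p of 0.05, 7.4% and 6.95% of all genes were lower and 3.32% and 3.28% higher. All 3 measured serotonin neuron markers (Tph2, Slc6a4 and Htr1a) had lower means after MPH, with medians of -1.90 and -1.60, and 3 and 2 of them had an unadjusted p of 0.05 or less. Their mean level was 3.76 to 4.23 in MPH 1 mg/kg, 3.98 to 5.22 in MPH 10 mg/kg and 4.58 to 6.83 in saline. The 6 thalamic markers all had higher means in MPH 1 mg/kg than in saline (median 1.07, 2 at an unadjusted p of 0.05), with a median of 0.02 in MPH 10 mg/kg. Of 7 oligodendrocyte markers 6 had lower means in MPH 10 mg/kg (median -0.28, 2 at an unadjusted p of 0.05), and the median was -0.11 in MPH 1 mg/kg. All 8 microglia markers had lower means in MPH 10 mg/kg (median -0.23, 1 at an unadjusted p of 0.05). In MPH 1 mg/kg 6 of them were lower and 2 higher (median -0.06). Medians in MPH 1 mg/kg and MPH 10 mg/kg were -0.04 and -0.05 for astrocyte markers and 0.18 and 0.03 for GABA neuron markers. Cholinergic and motor neuron markers had medians of 0.03 and 0.04, and cortical and hippocampal neuron markers -0.23 and 0.04. The mean level of the dopamine neuron markers was 7.45 to 7.54 in MPH 1 mg/kg, 7.58 to 7.62 in MPH 10 mg/kg and 7.86 to 8.03 in saline. The 3' minus 5' difference of Actb, a sign of RNA integrity, was 1.04 to 1.19 in MPH 1 mg/kg, 1.03 to 1.12 in MPH 10 mg/kg and 0.88 to 0.93 in saline, so it separated the groups as Kcnd3 and Dpp6 did, and its part in them was not tested. The same difference for Gapdh overlapped between the groups, at 0.22 to 0.41 in MPH 1 mg/kg, 0.28 to 0.37 in MPH 10 mg/kg and 0.23 to 0.39 in saline.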

How the data were processed

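RNA of the substantia nigra was profiled on Affymetrix HT MG-430 PM arrays, 3 per group. The deposited table holds log2 intensities from Robust Multichip Average, run by the authors (no version given). The methods also name ComBat for a batch of the 3 replicates, without saying whether the deposited values include it. Of 45141 probe sets, 104 controls were left out. The platform annotation gave 28898 probe sets 1 gene, 551 several and 15588 none.

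The remaining 45037 entered a limma fit (3.58.1, R 4.3.3) with group and replicate number as terms (4 residual degrees of freedom), with Benjamini-Hochberg adjustment and a threshold of 0.05. The block follows the batch in the methods. Deviations of same-numbered arrays from their group means were negatively correlated in all 9 pairs (-0.626 to -0.132). Whether an earlier batch correction accounts for this was not tested. If the deposited values were batch-corrected, the fit without the block counts too many degrees of freedom and gives p-values that are too small. The script was tested on simulated data. Members, lists and tests were chosen with earlier results of these data known. All member probe sets were named, and of each other channel list the 2 genes with the smallest p in each comparison with saline. Alternatives were the fit without the block or with only the groups compared, other scaling, a filter on dim probe sets, a variance trend, probe set means and each array left out. Fits with arrays left out kept the block, so a value can differ from the plain difference of the means of the arrays left.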

Additional observations from a re-analysis of the deposited data

Results flagged for a closer look

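The dimmer Cacna1d probe set lay on opposite sides of saline in the MPH groups, with all MPH 10 mg/kg arrays above and the MPH 1 mg/kg mean below the saline mean. Its log2 difference between MPH 10 mg/kg and MPH 1 mg/kg was 0.308 (limma p 0.00576, adjusted p 0.774 over all 45037 probe sets), and it was 0.25 to 0.36 with each array left out in turn. The mean over the 9 arrays was 3.45, inside the range of the controls, and the brighter Cacna1d probe set gave 0.11 (SE 0.10) for the same difference. It is 1 of 51 comparisons of member probe sets.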

How the results depend on the processing

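With 3 arrays a group and 10 of 17 member probe sets inside the range of the controls, small changes of dim genes could not be detected. Of 21 gene values, 10 changed sign under at least 1 alternative (23 of 354 alternative values), and 0 of the 354 passed the threshold; the lowest adjusted p was 0.132. The cause was not tested. With probe sets averaged per gene, Kcnip3 in MPH 1 mg/kg gave 0.0174, and Kcnj6, Kcnd3 and Cacna1d in MPH 10 mg/kg gave 0.00679, 0.13 and 0.0807. Without MPH 10 mg/kg replicate 1 and saline replicate 2 together, chosen after seeing the data, Hcn2 in MPH 1 mg/kg gave -0.43, Cacna1c in MPH 10 mg/kg -0.0515 (dimmer probe set -0.0573), Cacna1d in MPH 10 mg/kg 0.0373, and Kcnn3 between the doses 0.00272.

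With each array left out in turn, the values against saline in MPH 1 mg/kg ran from -0.46 to 0.31 for Hcn2, -0.0448 to 0.159 for Kcnn3, -0.199 to 0.00523 for Kcnip3 and -0.0477 to 0.475 for the dimmer Kcnd3 probe set. In MPH 10 mg/kg they ran from -0.0273 to 0.0203 for Kcnj6, -0.00983 to 0.126 for Kcnn3 and -0.0897 to 0.0952 for Cacna1d. Between the doses they ran from -0.10 to 0.12 for Cacna1c, -0.27 to 0.12 for its dimmer probe set and -0.10 to 0.10 for Kcnn3.

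Without the replicate block, 3 member probe sets in MPH 1 mg/kg and 4 in MPH 10 mg/kg had an unadjusted p of 0.05 or less, and 54 and 115 of all probe sets passed the adjusted threshold, against 1, 1, 0 and 0 with it; it changed no call of a member. In MPH 1 mg/kg the member count was 0 with only the groups compared in the fit, and 2 after a second quantile normalization, after centring arrays on their medians, with an intensity trend and robust option, and without both named arrays. Between the doses it was 0 with brighter probe sets only. The trend and robust option called 2 and 1 of all probe sets. With each array left out the member count ran from 0 to 2, 1 to 4 and 1 to 2, and calls over all probe sets from 0 to 1, 0 to 1 and 0 to 0, for MPH 1 mg/kg, MPH 10 mg/kg and between the doses.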
